A study of Mus musculus with 16 samples.

Results

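The Slc25 genes encode the solute carriers of the mitochondrial inner membrane, and they were followed here in mouse calf muscle. Every row of the expression table whose name begins with Slc25a was taken, and a row became a member when it reached 1 RPKM (reads scaled to transcript length and library total) in at least 4 of 16 libraries. This gave 35 members out of 47 Slc25a rows, in a table of 23440 genes of which 10171 reached the same level and were tested. Within the 35, members were grouped by the substrate each is known to carry: 8 for nucleotides or phosphate, 3 for carboxylates, 1 for acylcarnitine, 6 for amino acids, 11 for cofactors or metals, 2 uncoupling-like proteins, 1 protein of the outer membrane and 3 with no settled substrate.

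Carriers of this family exchange metabolites between cytosol and matrix. They bring in ADP, phosphate, acylcarnitines, amino acids and cofactors, and let out ATP and intermediates of the citric acid cycle. In muscle the exchange of ADP for ATP links respiration to contraction, the malate-aspartate shuttle moves reducing power from glycolysis into the matrix, and the acylcarnitine carrier feeds fatty acid oxidation, which endurance training is known to raise.

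The RNA came from the gastrocnemius, a mixed and mostly fast calf muscle, of male C57Bl6/J mice aged 20 weeks. Mice were wild type (WT) or lacked the cytokine interleukin 13 (Il13-/-, here KO), and each genotype was either left untrained or trained for 5 weeks by running on a treadmill each day. The 4 groups, WT untrained, WT trained, KO untrained and KO trained, held 4 mice each and shared sex, age, strain label and muscle. The tissue was whole muscle, so fewer cells of a type and less RNA per cell cannot be told apart.

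Library totals solved from the RPKM steps ran from 16307025 to 20074677 reads. Il13 itself was listed at 0 in 8 of 8 WT libraries and had 1 or 2 reads in 4 of 8 KO libraries, which is too few to check the genotype labels, so groups carry their labelled names. The fast fibre list, 10 genes of fast muscle, summed to between 67644 and 89009 RPKM over the libraries. WT trained 1 stood apart from its group. It was the highest of its 4 libraries in 56.2% of tested genes. Of its total, 83.5% lay in listed genes, against 76.0% to 78.8% in WT trained 2, 3 and 4. This share was 79.9% to 83.3% in WT untrained, 77.2% to 81.7% in KO untrained and 75.6% to 78.3% in KO trained libraries. RPKM is scaled to the whole total, and the part of this share in the differences was not tested. KO untrained 3 and KO trained 3 stood apart in markers of slow fibres, tendon and fat, and KO untrained 3 in nerve markers, whose values are given below beside the results. Values without these libraries are given where they end or make a call.

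Levels ran over more than 3 orders of magnitude, and 1 gene held most of the family's RNA. Slc25a4, the ADP/ATP carrier of muscle (Ant1), averaged 2602 RPKM and made up 73.1% to 76.3% of the summed RPKM of the members in each library. Slc25a3, the phosphate carrier that supplies the other substrate of ATP synthase, followed at 386 RPKM. Slc25a11 and Slc25a12, the 2-oxoglutarate/malate carrier and the aspartate/glutamate carrier of the malate-aspartate shuttle, stood next at 128 and 124 RPKM. The ranges of these last 2 overlapped, and Slc25a11 was the higher of them in 10 of 16 libraries. Slc25a20, the carnitine/acylcarnitine carrier, averaged 42.8 RPKM and lay clear below the shuttle pair, from 35.6 to 59.5 RPKM.

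**Figure D1:**
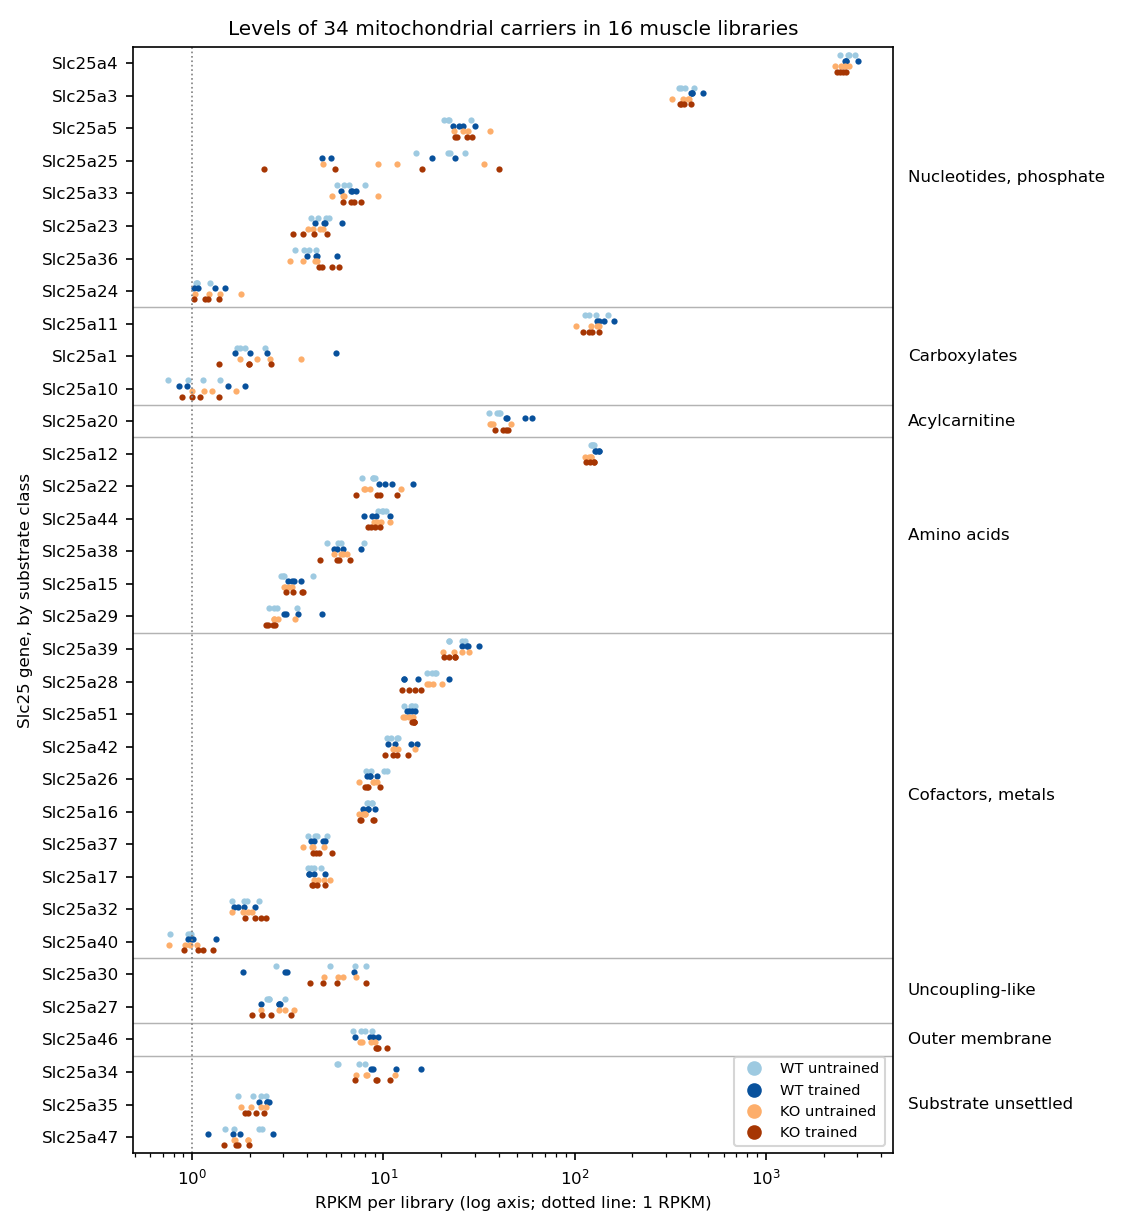
Each point is the RPKM of 1 of 34 members in 1 of 16 libraries, on a log axis, with members ordered by substrate class and coloured by group. Slc25a4 lies far to the right of all others, from 2285 to 3035 RPKM, Slc25a40 straddles the dotted line at 1 RPKM, and Slc25a25 spreads from 2.39 to 40.3 RPKM.

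Below the leading genes the order was less distinct. There were 8 members from 10 to 100 RPKM, 9 from 5 to 10 and 14 from 1 to 5. Of the 34 pairs of neighbours in the order, 31 had ranges over the 16 libraries that overlapped. The highest cofactor or metal carriers were Slc25a39, a glutathione importer (24.8 RPKM), Slc25a28, an iron importer (16.5 RPKM), and Slc25a51, the NAD importer (13.9 RPKM). Slc25a30 led the uncoupling-like pair at 5.32 RPKM, Slc25a46, which shapes mitochondria from the outer membrane, averaged 8.52 RPKM, and the orphan carrier Slc25a34 led the members of unsettled substrate at 8.95 RPKM.

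Where isoforms share a substrate, 1 of them was much the higher in some sets, and RPKM allows this comparison because it is per length. Slc25a4 exceeded Slc25a5, the ADP/ATP carrier of dividing cells, by 71.9 to 132 times in the single libraries. Slc25a12 exceeded Slc25a13, the aspartate/glutamate carrier typical of liver, by 219 to 602 times, on only 11 to 33 reads of Slc25a13 per library. Slc25a39 exceeded its glutathione-importing partner Slc25a40 by 18 to 35 times. The gap was narrower for the iron importers, where Slc25a28 was 2.54 to 5.34 times Slc25a37, known for its part in red cell precursors. It was narrower still for the pyrimidine nucleotide carriers, where Slc25a33 was 1.26 to 2.08 times Slc25a36. The carriers of ATP-Mg and phosphate had no steady gap. Slc25a25 was 0.552 to 10.6 times Slc25a23 and 1.73 to 39.2 times Slc25a24.

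The 12 Slc25a rows that were not members were low throughout. Nearest to the limit from below were Slc25a14, a brain uncoupling protein homologue (0.842 RPKM), and Slc25a45 (0.807 RPKM), each of which reached 1 RPKM in 2 libraries. Nearest from above were Slc25a40, at 1 RPKM or more in 6 libraries and 1.01 RPKM on average, and Slc25a10, the dicarboxylate carrier, in 10 libraries and 1.18 RPKM. Slc25a13 averaged 0.337 RPKM and Slc25a53 0.132 RPKM. The others were at or near 0: Slc25a2, Slc25a43 and Slc25a21 never exceeded 3 reads, Slc25a18 never exceeded 2, and Slc25a54 had no read in any library. Slc25a48, Slc25a41 and Slc25a31, the germ cell ADP/ATP carrier, were above 0 in 1 library each, at no more than 0.0665 RPKM. For a gene seen in 1 library, the recovery of reads cannot settle the count.

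No member passed the test in any of the 7 comparisons made. Each comparison was a contrast in 1 limma fit over all 10171 genes on log2(RPKM + 0.1), with Benjamini-Hochberg adjustment over all of them and a threshold of 0.05. The voom test on reads recovered from the RPKM steps also called 0 members in each. For orientation in the sections that follow, promoter sequences are shown for the 4 members with the smallest p-values for training averaged over genotypes. They are the 250 bases before the RefSeq start in GRCm38.p6, read 5′ to 3′ on the gene's strand. Slc25a20 lies at chr9:108661886-108662135 on the plus strand, and its capitals mark CCGGAAG, the core of an ETS site. Slc25a36 lies at chr9:97111042-97111291 on the minus strand, and its capitals mark TGACGTCA, a cyclic AMP response element. Slc25a28 lies at chr19:43674882-43675131 and Slc25a34 at chr4:141623835-141624084, both on the minus strand, and neither holds a motif that was searched.
Slc25a20: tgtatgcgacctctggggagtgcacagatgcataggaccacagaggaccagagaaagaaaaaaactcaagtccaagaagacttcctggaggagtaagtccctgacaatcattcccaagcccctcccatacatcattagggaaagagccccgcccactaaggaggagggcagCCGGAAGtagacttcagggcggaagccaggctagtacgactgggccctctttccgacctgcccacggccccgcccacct
Slc25a36: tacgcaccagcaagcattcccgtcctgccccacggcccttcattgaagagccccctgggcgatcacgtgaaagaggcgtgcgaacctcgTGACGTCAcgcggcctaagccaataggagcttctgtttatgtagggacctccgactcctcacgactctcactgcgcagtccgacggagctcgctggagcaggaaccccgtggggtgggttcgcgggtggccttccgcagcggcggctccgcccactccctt
Slc25a28: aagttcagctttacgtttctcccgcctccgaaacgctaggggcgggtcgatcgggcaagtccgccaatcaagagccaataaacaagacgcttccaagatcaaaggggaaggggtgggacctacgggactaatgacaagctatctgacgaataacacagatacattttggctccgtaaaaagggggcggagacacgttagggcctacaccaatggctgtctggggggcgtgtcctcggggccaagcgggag
Slc25a34: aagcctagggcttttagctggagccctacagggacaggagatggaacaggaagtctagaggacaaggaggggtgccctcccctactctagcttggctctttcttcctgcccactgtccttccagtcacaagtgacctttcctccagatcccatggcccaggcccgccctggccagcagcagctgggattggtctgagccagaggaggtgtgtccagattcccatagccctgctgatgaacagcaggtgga

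The motifs were searched on both strands from 250 bases before to 50 bases after the start, over 32817 RefSeq promoters and the 26 members with an entry that could be used. Each member counts once, by the start nearest its listed 5′ end, while the 32817 also cover genes that were not tested. These sets are unlike, and enrichment was not tested. CCGGAAG was in 6 of the 26 (Slc25a25, Slc25a4, Slc25a20, Slc25a38, Slc25a3 and Slc25a17) and in 8.86% of all promoters. TGACGTCA was in 1 (Slc25a36) and in 1.79% of all. CGCATGCG, an 8-letter form of the element of nuclear respiratory factor 1, was in none and in 1.86% of all. TNAAGGTCA, the element of the oestrogen-related receptors, was in none and in 1.28% of all. No match overlapped another. A match describes letters, and binding was not measured.

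Training in WT mice is the first comparison, and it asks what 5 weeks of running did to these transcripts where Il13 was intact. The members leaned upward: 26 of 35 were above 0, with a median log2 difference of 0.09, where 52.4% of all tested genes were above 0 with a median of 0.01. None passed the test (0 of 35, against 0.187% of all tested genes), and 6 had an unadjusted p under 0.05, all higher, against 11.8% of all genes in both directions. The groups of 4 did not overlap for 4 members, all higher after training (Slc25a12, Slc25a34, Slc25a22 and Slc25a20), where 3.76% of all genes were higher and 2.62% lower without overlap. By class, all 3 carboxylate carriers, 7 of 8 nucleotide or phosphate carriers and 5 of 6 amino acid carriers were above 0. The 11 cofactor and metal carriers divided 6 to 5. WT trained 1 was the highest of its group for 19 of 35 members, against 56.2% of all tested genes.

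**Figure D2:**
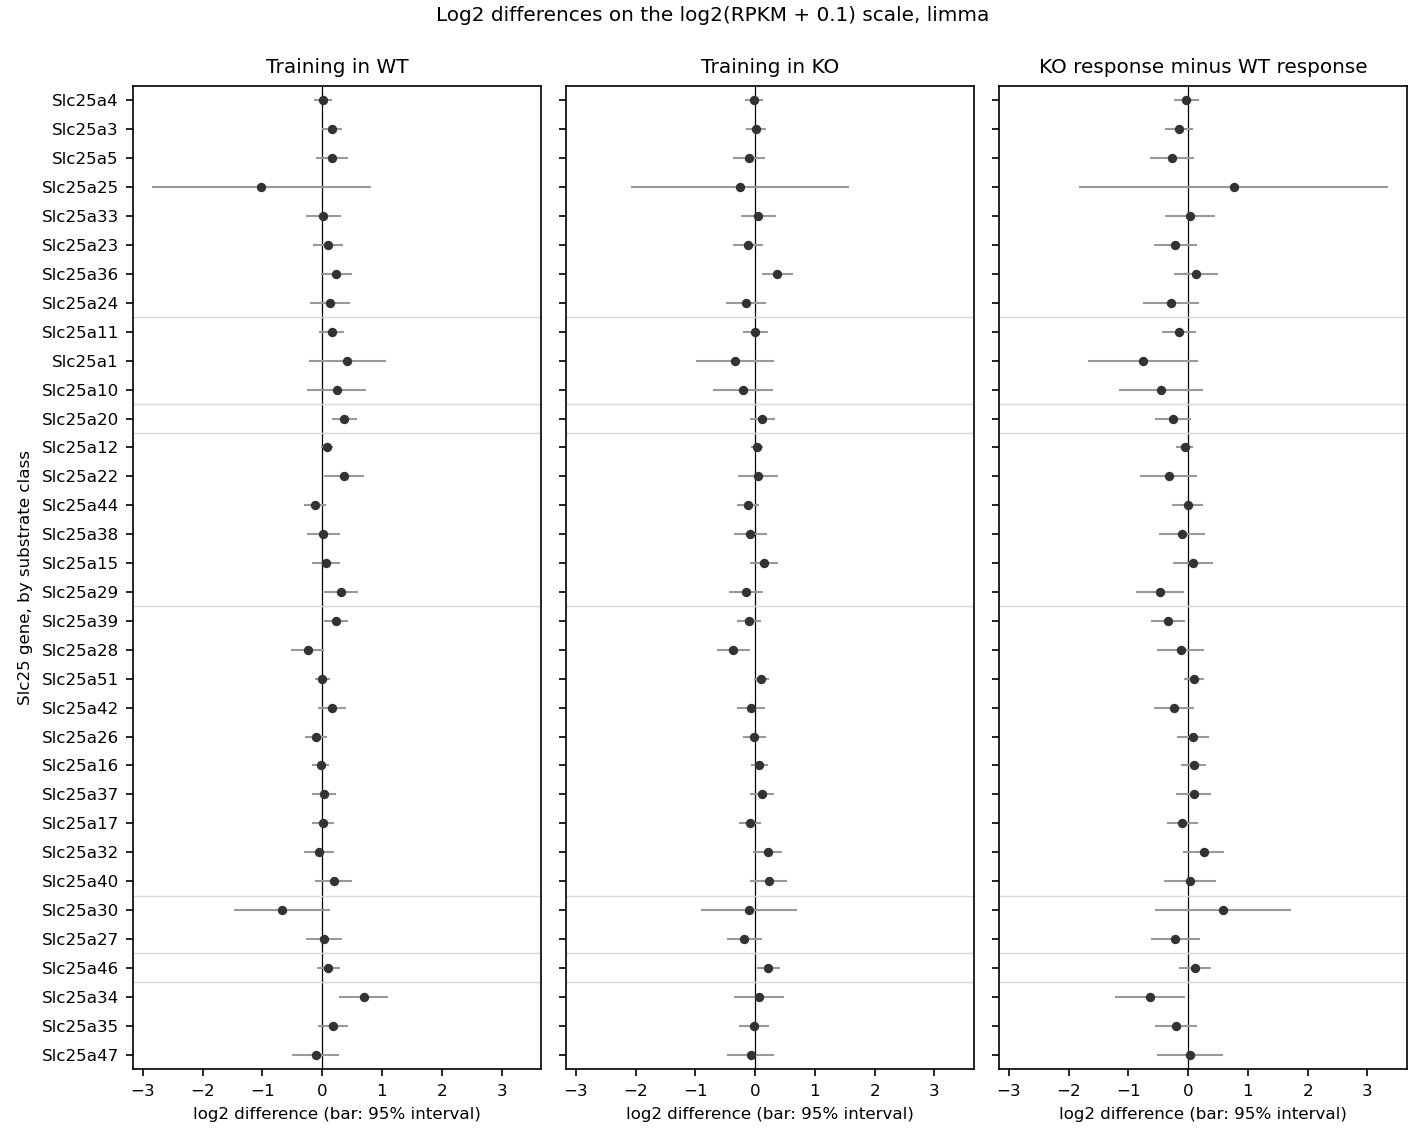
Points are log2 differences on the log2(RPKM + 0.1) scale from limma with their 95% intervals, for training in WT, training in KO and the KO response minus the WT response, with 34 members ordered by substrate class. Intervals of most members lie within 1.5-fold either way in the first pair of panels, and those of Slc25a25 and Slc25a30 are the widest.

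Slc25a20, which carries acylcarnitines into the matrix in exchange for carnitine, had the smallest p in WT. Its gene lies at chr9:108662098-108684641 on the plus strand. It stood at 40.5, 40.2, 35.6 and 39.2 RPKM in WT untrained 1 to 4 and at 59.5, 44.5, 43.6 and 55.1 RPKM in WT trained 1 to 4. It stood at 37.3, 36.2, 46.7 and 36.3 RPKM in KO untrained 1 to 4 and at 44.9, 38.4, 42.3 and 43.9 RPKM in KO trained 1 to 4. The lowest WT trained library lay above the highest WT untrained one, and in KO the groups overlapped through KO untrained 3. The log2 difference with training was 0.37 in WT (SE 0.10, adjusted p = 0.116) and 0.12 in KO (SE 0.10, adjusted p = 0.586). The KO response minus the WT response was -0.25 (95% interval -0.55 to 0.05). With quantile normalization of the libraries, the WT difference was 0.39 and passed (limma, adjusted p = 0.0341). Leaving out 1 library at a time gave 0.29 to 0.44 in WT (limma, adjusted p from 0.0772 to 0.341).

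The orphan carrier Slc25a34, at chr4:141618825-141623834 on the minus strand, had the largest upward difference in WT. It stood at 5.70, 8.05, 5.77 and 7.49 RPKM in WT untrained 1 to 4 and at 15.8, 8.82, 8.6 and 11.7 RPKM in WT trained 1 to 4. In KO it stood at 8.18, 7.15, 11.5 and 8.07 RPKM untrained and at 9.28, 7.13, 9.14 and 10.8 RPKM trained. WT trained 1 was the highest of all 16 libraries, and the KO groups overlapped widely. The log2 difference was 0.70 in WT (SE 0.19, adjusted p = 0.130) and 0.06 in KO (SE 0.19, adjusted p = 0.898). The difference of the responses was -0.63 (limma, unadjusted p = 0.0350, adjusted p = 0.571). Leaving out 1 library at a time gave 0.52 to 0.81 for the WT difference.

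Slc25a22, a glutamate carrier, showed the same layout. Its WT untrained libraries lay from 7.68 to 9.07 RPKM and its WT trained ones from 9.51 to 14.3 RPKM, a log2 difference of 0.37 (adjusted p = 0.362). KO untrained 3, at 12.4 RPKM, was well above KO untrained 1, 2 and 4, which lay from 7.89 to 8.53 RPKM. Slc25a12, which exports aspartate for the malate-aspartate shuttle, was separated in WT by a much smaller step, from 124 ± 1.74 to 131 ± 3.55 RPKM (SD, n = 4), a log2 difference of 0.09 (adjusted p = 0.514). Its partner Slc25a11 had a log2 difference of 0.16 and overlapping groups.

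**Figure D3:**
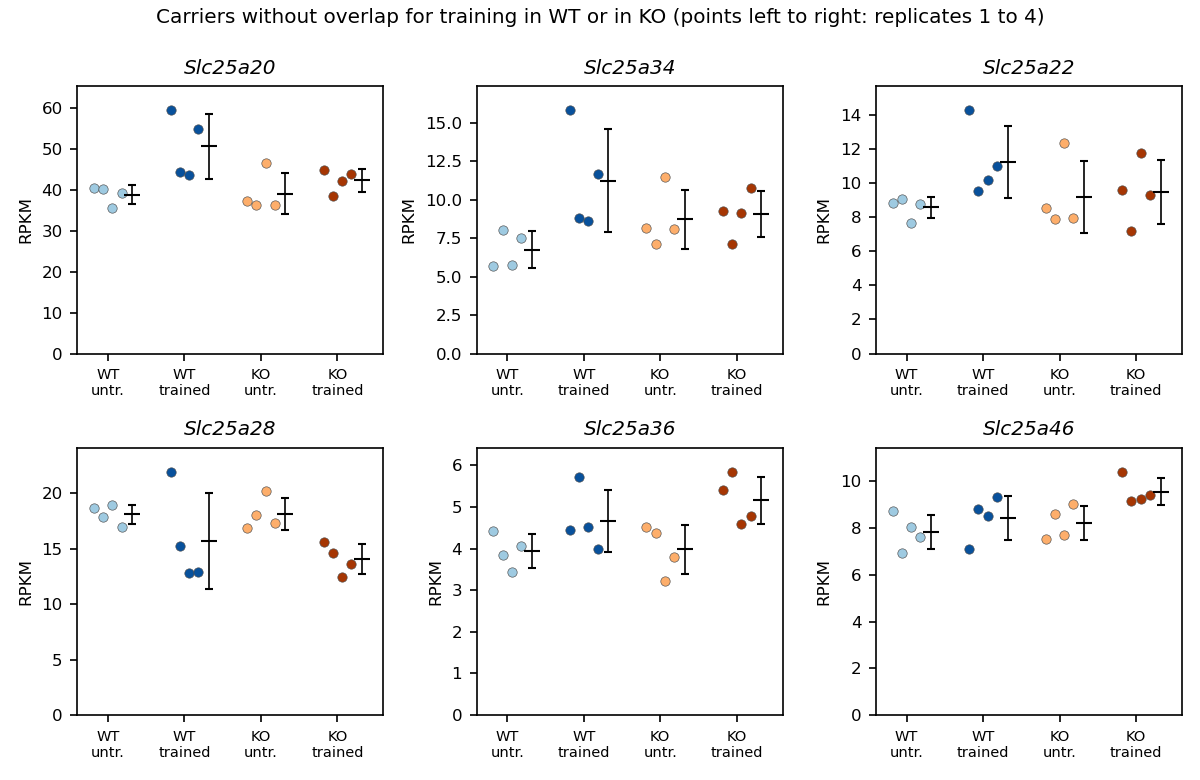
RPKM of 6 of the 7 members whose untrained and trained groups did not overlap in WT or in KO (the other, Slc25a12, is plotted with the trained genotypes), in each of 16 libraries, with points left to right as replicates 1 to 4, and the mean with SD beside them. In the WT trained group, replicate 1 is the highest library for Slc25a20, Slc25a34, Slc25a22 and Slc25a28, and in the KO untrained group replicate 3 is the highest for these same 4.

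Slc25a4, the most abundant member, stood nearly level across training in both genotypes. It averaged 2687 ± 188 RPKM untrained and 2720 ± 211 trained in WT, and 2515 ± 189 untrained and 2487 ± 117.5 trained in KO (SD, n = 4). Its training difference was 0.02 in WT (95% interval -0.13 to 0.16) and -0.01 in KO (95% interval -0.16 to 0.13), and the sign of either value turned when single libraries were left out. Slc25a3 averaged 378 ± 31.6, 424 ± 28.3, 369 ± 34.4 and 373 ± 24.4 RPKM in the same order, with a log2 difference of 0.17 in WT (SE 0.08, unadjusted p = 0.0468, adjusted p = 0.409) and 0.02 in KO. The ratio of Slc25a3 to Slc25a4 within a library lay from 0.130 to 0.146 in untrained and from 0.154 to 0.158 in trained WT mice, without overlap, and from 0.140 to 0.154 and from 0.140 to 0.155 in untrained and trained KO mice, a description formed after the values were seen. Slc25a51, which brings NAD into the matrix, was among the steadiest members, from 12.7 to 14.6 RPKM over all 16 libraries.

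Training in KO mice gave a mixed picture over the members. There, 15 of 35 members were above 0 with a median of -0.02, where 35.1% of all genes were above 0 with a median of -0.06. None passed (0 of 35, against 0% of all tested genes), and 3 had an unadjusted p under 0.05, against 13.7% of all genes. The groups did not overlap for Slc25a36 and Slc25a46, which were higher after training, and for Slc25a28, which was lower, where 4% of all genes were higher and 5.43% lower without overlap.

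Slc25a28 (mitoferrin 2), at chr19:43663801-43674881 on the minus strand, brings iron into mitochondria for heme and iron-sulphur clusters. It stood at 18.6, 17.9, 18.9 and 16.9 RPKM in WT untrained 1 to 4 and at 21.9, 15.2, 12.8 and 12.9 RPKM in WT trained 1 to 4. In KO it stood at 16.9, 18.1, 20.2 and 17.3 RPKM untrained and at 15.6, 14.6, 12.4 and 13.6 RPKM trained. Of the 8 trained libraries, 7 lay below every untrained library, and WT trained 1 was the highest of all 16. The log2 difference was -0.24 in WT (SE 0.13, adjusted p = 0.506), -0.36 in KO (SE 0.13, adjusted p = 0.266) and -0.30 averaged over genotypes (SE 0.09, adjusted p = 0.108). Without WT trained 1, Slc25a28 passed the limma test in WT (-0.41, adjusted p = 0.0222), in KO (-0.36, adjusted p = 0.0481) and averaged (-0.39, adjusted p = 0.00218). The KO difference itself does not use that library, and its p moved through the shared estimate of spread. Slc25a37, the other iron importer, had log2 differences of 0.03 in WT and 0.12 in KO.

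Slc25a36, a pyrimidine nucleotide carrier that serves mitochondrial DNA and RNA synthesis, lies at chr9:97077011-97111041 on the minus strand. It stood at 4.42, 3.83, 3.43 and 4.06 RPKM in WT untrained 1 to 4 and at 4.45, 5.73, 4.51 and 3.99 RPKM in WT trained 1 to 4. In KO it stood at 4.52, 4.37, 3.23 and 3.80 RPKM untrained and at 5.40, 5.84, 4.60 and 4.78 RPKM trained. All 4 KO trained libraries lay above all 4 KO untrained ones, and in WT the groups overlapped. The log2 difference was 0.37 in KO (SE 0.12, adjusted p = 0.258), 0.23 in WT (adjusted p = 0.481) and 0.30 averaged over genotypes (adjusted p = 0.0936). Slc25a33, which carries the same substrates, had 0.05 in KO and 0.02 in WT. Slc25a46 lay from 7.55 to 9.03 RPKM in KO untrained and from 9.18 to 10.4 RPKM in KO trained libraries, a log2 difference of 0.22 (adjusted p = 0.305).

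With both genotypes averaged, 23 of 35 members were above 0, against 41.7% of all genes, and the member median was 0.04 against -0.02. The test called 0 of 35 members, against 0.777% of all tested genes, and 5 had an unadjusted p under 0.05, against 18% of all genes. These were Slc25a36, Slc25a20, Slc25a34 and Slc25a46, higher in trained mice, and Slc25a28, lower. The count depended on WT trained 1 and on the scaling. Without that library 3 members passed (Slc25a36, Slc25a46 and Slc25a28). With libraries weighted by their quality 4 passed (these 3 and Slc25a20), and with quantile normalization 1 passed (Slc25a20). The share of all tested genes passing in these alternatives is not given here. Whether members passed more often than other genes there cannot be told. Trained and untrained libraries, 8 of each, overlapped for every member, as for all but 0.187% of tested genes.

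Further members are given here by substrate, and their groups overlapped in both genotypes. Among amino acid carriers, Slc25a44, which imports branched-chain amino acids, stood at 9.41, 10.3, 9.79 and 9.95 RPKM in WT untrained 1 to 4 and at 10.8, 9.14, 8.71 and 7.91 RPKM in WT trained 1 to 4. KO mice had 10.8, 8.97, 9.73 and 9.23 RPKM untrained and 9.63, 8.998, 8.31 and 8.59 RPKM trained. The log2 difference was -0.12 in each genotype, and the highest library was WT trained 1. Slc25a38, which brings in glycine for heme synthesis, lay from 4.67 to 7.89 RPKM (0.02 in WT, -0.08 in KO), and the ornithine carrier Slc25a15 from 2.93 to 4.31 RPKM (0.06 and 0.14). Among carboxylate carriers, Slc25a10, the dicarboxylate carrier, lay from 0.746 to 1.88 RPKM, with 0.24 in WT and -0.20 in KO, and Slc25a1, the citrate carrier, lay from 1.38 to 5.64 RPKM, with 0.42 in WT (adjusted p = 0.638) and -0.33 in KO (adjusted p = 0.625).

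Among cofactor carriers, Slc25a42, which imports coenzyme A, lay from 10.2 to 15.04 RPKM (0.17 in WT, -0.07 in KO). Slc25a26, which imports the methyl donor S-adenosylmethionine, lay from 7.48 to 10.4 RPKM (-0.10 and -0.01). Slc25a32, the folate and FAD carrier, stood at 2.24, 1.94, 1.62 and 1.87 RPKM in WT untrained 1 to 4 and at 1.73, 2.12, 1.66 and 1.87 RPKM in WT trained 1 to 4. Levels in KO were 1.62, 1.85, 1.96 and 2.05 RPKM untrained and 1.88, 2.12, 2.42 and 2.28 RPKM trained. Its log2 difference with training was -0.05 in WT and 0.21 in KO, and its KO response minus WT response was 0.26 (adjusted p = 0.699).

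The uncoupling-like Slc25a27 stood at 2.47, 3.07, 2.53 and 2.53 RPKM in WT untrained 1 to 4 and at 2.28, 2.84, 2.89 and 2.84 RPKM in WT trained 1 to 4. The KO libraries had 2.30, 2.83, 3.39 and 3.06 RPKM untrained and 2.32, 2.04, 3.27 and 2.58 RPKM trained. Replicate 3 was the highest library of each KO group, and the log2 difference with training was 0.03 in WT and -0.18 in KO. Among members of unsettled substrate, Slc25a35 had 0.18 and -0.02 and Slc25a47 -0.10 and -0.07.

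The difference between the responses of KO and WT mice, which asks whether loss of Il13 changed the effect of training, called 0 members, against 0% of all genes. Of 35 members, 13 were above 0, against 38.4% of all genes, with a median of -0.10 against -0.05. An unadjusted p under 0.05 was found for 3 members, all negative, against 8.4% of all genes: Slc25a39 (-0.33), Slc25a29 (-0.47) and Slc25a34 (-0.63), with adjusted p of 0.550 for the first pair and 0.571 for the last (limma). Precision limits this comparison, since the 95% interval lay within 1.5-fold either way for 22 of 35 members, against 28 for training in WT and 29 in KO. Outside it were Slc25a1, the citrate carrier, at -0.76 (95% interval -1.67 to 0.16), and 12 others.

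Before training, the members as a set leaned to neither genotype. Of 35 members, 18 were above 0 in KO against WT untrained mice, with a median of 0.00, as for all genes, of which 51.4% were above 0. The test called 0 members, against 0.0492% of all tested genes, and 1 had an unadjusted p under 0.05 (Slc25a5), against 6.2% of all genes. Slc25a5, the ADP/ATP carrier of dividing cells, stood at 20.7, 22.1, 21.8 and 28.6 RPKM in WT untrained 1 to 4 and at 35.9, 27.6, 26.1 and 23.5 RPKM in KO untrained 1 to 4. The groups overlapped, and the log2 difference was 0.27 (SE 0.13, adjusted p = 0.780). Slc25a16, a carrier of the coenzyme A pathway, was the 1 member whose groups did not overlap, at 8.51 ± 0.30 RPKM in WT and 7.83 ± 0.26 in KO (SD, n = 4), a log2 difference of -0.12, where 2.37% of all genes were lower without overlap. Slc25a24, a calcium-dependent ATP-Mg/phosphate carrier, stood at 1.06, 1.05, 1.06 and 1.24 RPKM in WT untrained 1 to 4 and at 1.79, 1.39, 1.22 and 1.03 RPKM in KO untrained 1 to 4. These groups overlapped through KO untrained 4, and the log2 difference was 0.26 (adjusted p = 0.785). Slc25a4 was at -0.10 (95% interval -0.24 to 0.05), which turned to 0.03 with quantile normalization.

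After training, the share of members above 0 in KO against WT was close to that of the whole table. It was 11 of 35 (31.4%), against 34.8% of all genes, and the median was -0.10, against -0.05. The test called 0 members, against 0.0885% of all tested genes, and 7 had an unadjusted p under 0.05, all lower in KO, against 13.9% of all genes in both directions. Groups did not overlap for 3 members, Slc25a29, Slc25a39 and Slc25a12, all lower in KO, where 5.86% of all genes were lower without overlap.

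**Figure D4:**
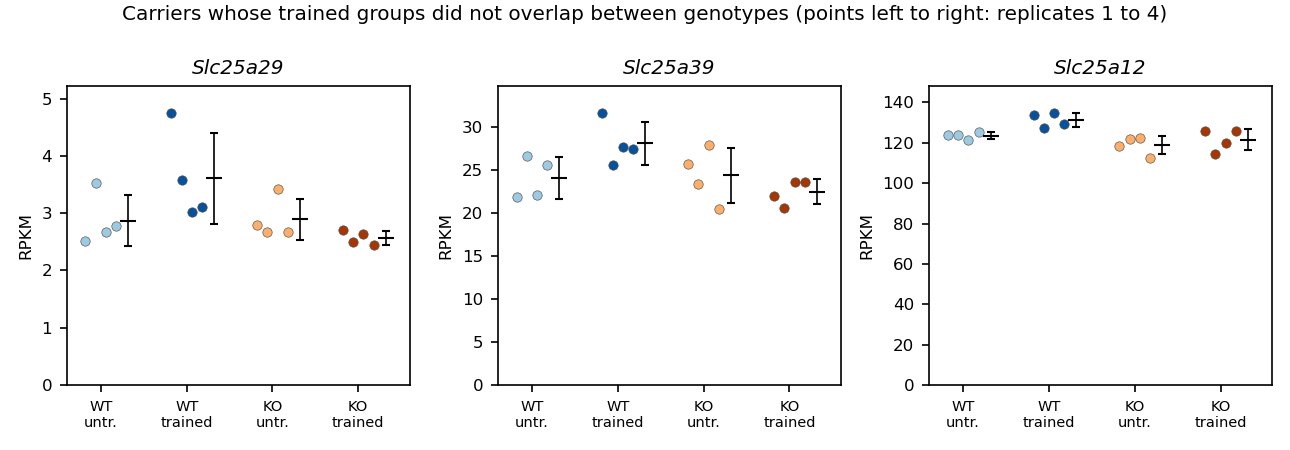
RPKM of the 3 members whose trained groups did not overlap between genotypes, in each of 16 libraries, with points left to right as replicates 1 to 4 and the mean with SD beside them. For Slc25a29 the KO trained libraries lie from 2.45 to 2.71 RPKM and the WT trained ones from 3.02 to 4.75 RPKM.

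Slc25a29, a carrier of basic amino acids, stood at 2.51, 3.53, 2.68 and 2.77 RPKM in WT untrained 1 to 4 and at 4.75, 3.58, 3.02 and 3.11 RPKM in WT trained 1 to 4. In KO it stood at 2.80, 2.67, 3.43 and 2.67 RPKM untrained and at 2.71, 2.50, 2.63 and 2.45 RPKM trained. The KO trained libraries were close together, below every WT trained library, and the log2 difference was -0.45 (SE 0.14, adjusted p = 0.204). Slc25a39, which imports glutathione, the main antioxidant of the matrix, stood at 21.9, 26.7, 22.1 and 25.6 RPKM in WT untrained 1 to 4 and at 31.6, 25.6, 27.7 and 27.5 RPKM in WT trained 1 to 4. In KO it stood at 25.7, 23.4, 28 and 20.5 RPKM untrained and at 22.1, 20.6, 23.7 and 23.6 RPKM trained. The trained groups lay apart while the untrained groups overlapped, and the log2 difference between trained groups was -0.32 (SE 0.09, adjusted p = 0.204). Slc25a12 was at 122 ± 5.41 RPKM in KO trained and 131 ± 3.55 RPKM in WT trained libraries (SD, n = 4), a log2 difference of -0.11 (adjusted p = 0.321).

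The 4 other members with an unadjusted p under 0.05 in trained mice were Slc25a3 (-0.18), Slc25a11 (-0.22), Slc25a20 (-0.25) and Slc25a23, a calcium-dependent ATP-Mg/phosphate carrier (-0.29), with adjusted p from 0.297 to 0.329 (limma). Slc25a23 stood at 6.06, 4.39, 4.95 and 4.89 RPKM in WT trained 1 to 4 and at 3.82, 3.35, 4.32 and 5.05 RPKM in KO trained 1 to 4, and KO trained 4 made the groups overlap. Slc25a30 was the furthest upward, at 0.71 (adjusted p = 0.411). With training states averaged, 12 of 35 members were above 0, against 40.4% of all genes, and 0 passed, against 0.0787% of all tested genes. An unadjusted p under 0.05 was found for 6 members, all lower in KO, against 12.2% of all genes in both directions. Slc25a12 (-0.08), Slc25a29 (-0.22) and Slc25a39 (-0.15) had the smallest p among them, and the KO and WT libraries, 8 of each, overlapped for every member, as for all but 0.059% of tested genes. The trained WT libraries enter both this comparison and the training response, so the values above are not independent of those in WT training.

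Sums of fibre type and tendon markers did not overlap between untrained and trained WT mice, and those of adipocyte markers overlapped in both genotypes. With training in WT, an unadjusted p under 0.05 (limma) was found for 0 of 4 macrophage, 1 of 4 endothelial and 0 of 3 red cell markers. The share of all tested genes was 11.8%. The slow and oxidative fibre list of 11 genes summed to 1964 to 2607 RPKM untrained and 3373 to 4606 trained in WT, and to 2032 to 3365 untrained and 2047 to 3325 trained in KO. WT trained 1 held the highest sum, and KO untrained 3 and KO trained 3 the highest of their groups. All 11 were above 0 with training in WT (median 1.002, 1 passed) and 2 in KO (median -0.20, none passed). Of all tested genes, 52.4% were above 0 and 0.187% passed in WT, and 35.1% were above 0 and 0% passed in KO. The fast fibre list summed to 80831 to 89009 RPKM untrained and 67644 to 74612 trained in WT, without overlap, and to 74106 to 76344 untrained and 68096 to 74186 trained in KO. Of its 10 genes, 1 was above 0 with training in WT (median -0.22) and 2 in KO (median -0.06), with none passing in either. Averaged over genotypes 1 was called lower (Tnnc2, fast troponin C, -0.17, limma, adjusted p = 0.0469), where 0.777% of all tested genes were called in both directions. Tendon markers, of which 7 of 8 were tested, summed to 120.99 to 154, 205 to 267, 145.8 to 256 and 97.7 to 225 RPKM in the same order of groups. Adipocyte markers, 7 of 7 tested, summed to 297 to 452, 383 to 487, 394 to 671 and 320 to 589 RPKM, highest in KO untrained 3. Schwann cell and nerve markers, 4 of 4 tested, summed to 24.7 to 33.98 RPKM untrained and 15.3 to 56.2 trained in WT, and to 33.3 to 85.4 untrained and 21.04 to 32.7 trained in KO, with KO untrained 3 at the 85.4. All 4 were below 0 with training in KO, where 35.1% of all tested genes were above 0, and none passed. Ucp1, the defining gene of brown fat, was at 0 in every library, and the 4 proliferation markers together stayed at or below 0.38 RPKM. The part of fibre type, tendon, fat and nerve in the member values was not tested. With KO untrained 3 and KO trained 3 set aside together, 0 members passed in all 7 comparisons. The difference of responses for Slc25a34 was then -0.50. The WT difference of Slc25a20 stayed at 0.37, since it uses no KO library. Its p moved only through the shared estimate of spread (limma, adjusted p = 0.0790). The remaining KO libraries of Slc25a20 lay from 36.2 to 37.3 RPKM untrained and from 38.4 to 44.9 RPKM trained.

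Enzymes that supply or use what the carriers move were examined as a list of 20, of which 18 were tested. In WT training 16 of 18 were above 0 (median 0.18), against 52.4% of all genes. The test called 1 of the 18, against 0.187% of all genes. It was Got1, the cytosolic aspartate aminotransferase of the malate-aspartate shuttle (0.57, limma, adjusted p = 0.0415). In KO training 8 of 18 were above 0 (median -0.02), against 35.1% of all genes, and none passed. For KO against WT in trained mice, 1 of 18 was above 0 (median -0.21), against 34.8% of all genes. There, 11 had an unadjusted p under 0.05 (limma), against 13.9% of all genes, and none passed. Carriers and channels of other families, 17 tested of 24, had 14 above 0 in WT training with none passing. Training averaged over genotypes called 1 of these 17 and 1 of the 18 enzymes, both higher, against 0.777% of all genes. Genes of the carrier family under other names had none of 4 above 0 in WT training, and none of them passed in any comparison. The highest of these, Ucp3, an uncoupling protein of muscle, averaged 123 and 110 RPKM in untrained and trained WT mice and 121.1 and 123 RPKM in untrained and trained KO mice.

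A few members varied widely between mice of 1 group. Within-group standard deviation on the log2 scale had a median of 0.17 over the members and 0.15 over all tested genes. Slc25a25, a calcium-dependent ATP-Mg/phosphate carrier, reached 1.21, larger than in 99.8% of tested genes. It stood at 22.2, 26.6, 14.7 and 21.7 RPKM in WT untrained 1 to 4 and at 23.8, 18, 4.77 and 5.35 RPKM in WT trained 1 to 4. In KO it stood at 33.5, 11.7, 4.85 and 9.34 RPKM untrained and at 40.3, 15.9, 2.39 and 5.61 RPKM trained. The lowest and highest of all 16 values, a 16.9-fold span, both came from KO trained mice. The gene had at least 183 reads in every library, and its standard deviation between mice was 28.4 times that of counting alone.

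**Figure D5:**
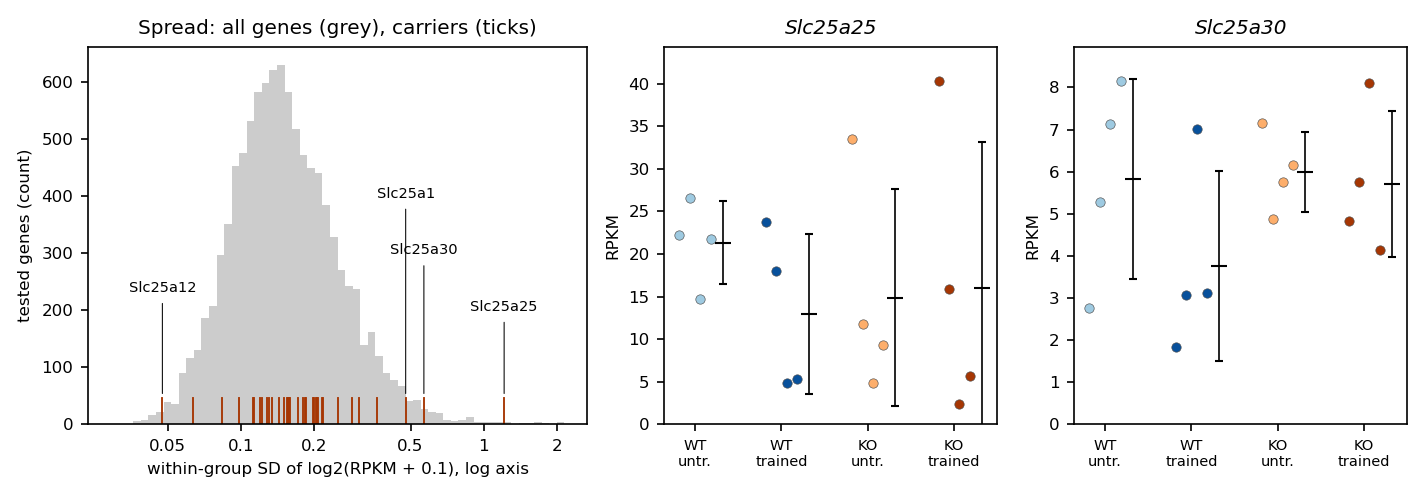
Left, the within-group standard deviation of log2(RPKM + 0.1) on a log axis for all 10171 tested genes in grey, with the 35 members as ticks. Middle and right, RPKM of Slc25a25 and Slc25a30 in each library by group, with the mean and SD, where the groups overlap for both genes.

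For Slc25a25 the training difference was -1.02 in WT (95% interval -2.85 to 0.81) and -0.25 in KO (95% interval -2.08 to 1.58), so a log2 difference of -1 and one of 0 both lay inside either interval. The related carriers were far steadier, with a within-group standard deviation of 0.18 for Slc25a23 and 0.22 for Slc25a24. Slc25a30 had 0.57 and ranged from 1.83 RPKM in WT trained 1 to 8.15 in WT untrained 4. Its other values were 2.76, 5.27 and 7.14 RPKM in WT untrained 1 to 3, 3.06, 7.01 and 3.12 in WT trained 2 to 4, 4.86 to 7.17 in KO untrained and 4.13 to 8.10 in KO trained libraries. Slc25a1, the citrate carrier that feeds fatty acid synthesis, had 0.48 and stood out in WT trained 3 at 5.64 RPKM, with WT trained 1, 2 and 4 at 2.45, 1.68 and 2.01 RPKM. At the other end, Slc25a12 had 0.048, smaller than in all but 0.501% of tested genes, and Slc25a51 had 0.064.

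Low members differed in how their spread compared with that of counting alone. Slc25a40 had 37 to 67 reads per library and Slc25a17, the peroxisomal carrier of coenzyme A and nucleotide cofactors, 113 to 158, and in both the standard deviation was at or below that of counting alone (ratios of 0.905 and 0.903). At similar depth Slc25a1, with 43 to 190 reads, had a ratio of 2.79, and Slc25a10, with 50 to 151 reads, one of 2.33. Counts of 12 members could also hold reads of another gene that shares exon bases in the annotation (GENCODE M21), 10 of them on the opposite strand. The longest overlap was 1151 bases between Slc25a35 (2.20 RPKM) and Rangrf (35.3 RPKM). Since the use of strand in counting is not given in the sources used here, the level of Slc25a35 is uncertain.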

How the data were processed

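The libraries were stranded poly(A) libraries from 2 ug of Trizol-extracted RNA, 1 mouse each, per the labels' protocols. The deposited values are RPKM computed by the authors, per the file headers. The build was mm10, as the submitters' processing notes name it, and which aligner, counter and annotation they used, and whether counting used strand, is not given in the sources used here. Whole reads were recovered from the RPKM steps (100% of values whole within 0.01 read, 17402 genes), which gave depth and 1 alternative test.

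Genes at 1 RPKM or more in at least 4 of 16 libraries were fitted on log2(RPKM + 0.1), which understates changes of low genes, with limma 3.58.1 (trend, robust; statmod 1.5.0, R 4.3.3). The fit had 1 mean per group, and two-sided p-values took the Benjamini-Hochberg adjustment over all tested genes, separately in 7 contrasts. It was tested on simulated data. Members, lists and motifs were chosen with earlier results of these data known. Members are described, by library or by range, when among the 3 of smallest p in a direction of a contrast, the highest of a substrate class or 1 of an isoform pair; others named, such as Slc25a22 and Slc25a25, were picked for overlap or spread after values were seen. Promoters are from RefSeq (GRCm38.p6). The values of 1 member and of 1 listed gene are not reported here. Replicate numbers were not used as pairs in the main fit, and 26 alternatives were run.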

Additional observations from a re-analysis of the deposited data

Results flagged for a closer look

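In 140 groups of 4 libraries (35 members in 4 groups), 10 held a library whose gap to the others exceeded Dixon's 95% critical value, where chance flags about 1 in 20. WT trained 1 was high for Slc25a4 (3035 RPKM, others 2589 to 2634) and Slc25a3 (466 RPKM, others 406 to 412), and low for Slc25a27 (2.28 RPKM, others 2.84 to 2.89). KO untrained 3, also the highest of its group in slow fibre, tendon and adipocyte markers, was high for Slc25a20 (46.7 RPKM, others 36.2 to 37.3) and Slc25a22 (12.4 RPKM, others 7.89 to 8.53). WT untrained 2 was high for Slc25a15, the ornithine carrier (4.31 RPKM, others 2.93 to 3.02), and Slc25a27 (3.07 RPKM, others 2.47 to 2.53), and low for Slc25a40 (0.762 RPKM, others 0.951 to 0.988). WT trained 4 was high for Slc25a40 (1.33 RPKM, others 0.950 to 1.01), and WT untrained 4 for Slc25a24 (1.24 RPKM, others 1.05 to 1.06).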

How the results depend on the processing

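Across 26 alternatives, 16 of which leave out 1 library, the count of members past the threshold was again 0 in 109 of 112 results without 1 library and in 64 of 67 others, and the median over members moved by less than the spread in every one. The exceptions concern training. The count was 1 in WT with quantile normalization, 1 averaged over genotypes with quantile normalization, and 4 averaged with weights per library. Leaving out 1 library gave 0 to 1 in WT, 0 to 1 in KO and 0 to 3 averaged, each upper value without WT trained 1. The shares of all tested genes passing in these alternatives are not given here. With the replicate number as a block the count was 0 in all 7 comparisons. Over 24 pairs of same-numbered libraries, the correlation of deviations from the group means ran from -0.18 to 0.44, with 6 over 0.1. Of 16 libraries, 6 correlated best with their own number. Between untrained and trained libraries numbered 1 to 4, r was 0.15, 0.19, 0.44 and 0.05 in KO. In WT it was -0.11, -0.05, 0.04 and 0.11. These values cannot show whether the numbers pair mice, and the main fit treats the mice as unpaired. The set-aside of both KO libraries numbered 3 was chosen after seeing the data.

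Some small differences changed sign, and the cause was not tested. For Slc25a4, KO against WT untrained was 0.033 with quantile normalization. With weights per library, its training difference in WT was -0.021 and its difference of responses 0.0012. With both KO libraries numbered 3 set aside, its training difference in KO was 0.035 and its difference of responses 0.018. Leaving out 1 library gave -0.037 to 0.056 for Slc25a4 in WT, -0.059 to 0.027 in KO and -0.076 to 0.023 for the difference of responses. With weights per library, Slc25a30 in KO was 0.000509 and the difference of responses of Slc25a28 was 0.0076. Without 1 library, Slc25a25 in KO ranged from -0.94 to 0.41, Slc25a30 in KO from -0.28 to 0.036, and the difference of responses of Slc25a28 from -0.21 to 0.047. The fit on only the groups compared covers the 4 comparisons of 2 groups. Members such as Slc25a40 had as few as 37 reads in a library, which limits their precision.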

Other observations

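The ratio of the iron importers within a library, Slc25a28 over Slc25a37, lay from 3.54 to 4.32 in WT untrained, 2.96 to 4.43 in WT trained, 3.69 to 5.34 in KO untrained and 2.54 to 3.65 in KO trained libraries. WT trained 1 held the 4.43, and WT trained 2, 3 and 4 lay from 2.96 to 3.15. The ratio of Slc25a25 to Slc25a23 lay from 0.552 to 10.6 over the 16 libraries. These ratios were formed after the values were seen and carry no test.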
